A study of Caenorhabditis elegans with 21 samples.

Results

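The muscle sarcomere genes described here are a set of 34 named genes of Caenorhabditis elegans that encode thick filaments, thin filaments and the structures that anchor both to the muscle cell membrane. They were found by gene name in an mRNA table of 21042 features. Of the 34 genes 33 had a row, and myo-1 was not analysed here. Messenger RNA was measured in 15 libraries as RPKM, the reads of a gene scaled to its length and to the size of the library. The embryos were 1-cell hybrids, sorted by fluorescence. Their fathers were CB4856, and the genotype of their mothers was fem-1(hc17ts)/TX189(OMA-1::GFP). Their RNA was either selected for poly(A) tails or depleted of rRNA (RiboMinus), in 3 libraries each. Poly(A) RNA of whole worms came in 3 libraries of CB4856, the Hawaiian wild strain of the fathers, and in 3 of the maternal strain, which carries the same fem-1(hc17ts) and OMA-1::GFP alleles as the mothers of the embryos. Sperm mRNA came in 1 library of fog-2(q71) males, 1 of pronase-treated CB4856 sperm of high purity and 1 of CB4856 sperm of low purity. All were labelled 24 C, and the labels state neither the sex nor the age of the worms. In 4 single libraries of small RNA, from fog-2 sperm, hybrid 1-cell embryos, 1-cell embryos labelled TX189(OMA-1::GFP) and N2 oocytes, the reads over the exons of the same genes were also described.

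A sarcomere is the repeating contractile unit of striated muscle, in which myosin thick filaments pull on actin thin filaments under the control of tropomyosin and the troponin complex. In the nematode, body wall muscle and pharyngeal muscle use partly different sets of these genes, and the filaments are held by dense bodies and M-lines that connect to an integrin in the membrane. Embryonic muscle cells differentiate long after the 1-cell stage, while actin and its regulators also build the cortex of the zygote.

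Between replicates 1 and 2 of a group the counts varied no further than sampling of read pairs allows, and each such pair was counted as 1 sample, so that each group had n = 2 samples. The labels do not say whether the samples came from separate cultures, so that p-values measure only the spread between these samples. Depth was 103.46 to 133.05 M reads in poly(A) embryos, 4.49 to 13.71 M in RiboMinus embryos, 34.35 to 155.09 M in CB4856 worms and 31.48 to 134.81 M in maternal-strain worms. The summed levels of markers of other tissues differed between embryos and whole worms in both directions. The summed level of 12 intestine markers was 7.65 to 12.2 RPKM in poly(A) embryos and 15640 to 15740 RPKM in maternal-strain worms, and that of 11 cuticle and hypodermis markers was 9.97 to 12.1 against 14540 to 14700 RPKM. The sum of 10 neuron markers went the other way, at 424.1 to 478.0 RPKM in poly(A) embryos and 183.6 to 185.6 RPKM in maternal-strain worms. It was set mostly by snb-1 and unc-119, which averaged 323.2 and 117.5 RPKM in poly(A) embryos. Gene by gene, 8 of the 10 neuron markers were lower in poly(A) embryos and 2 were higher, with a median log2 difference of -0.84. The values of the sperm libraries had no whole-read steps and covered at least 20953 features each, unlike those of the other libraries. They were therefore made in some other way, and levels set across them and the worm libraries are limited by that. In whole tissue, fewer cells of a type and less RNA per cell cannot be told apart.

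Most sarcomere genes were far lower in 1-cell embryos than in the mothers' strain, but act-1, act-2, act-3, the cofilin gene and the genes for integrin and kindlin had levels near or above those of whole worms. Relative to maternal-strain worms, 23 of the 33 genes fell in poly(A) embryos and 1, act-3, rose. A gene was called at a limma adjusted p under 0.05 with a log2 difference of at least 1 on the log2(RPKM + 1) scale, which understates changes of low genes. Of all 11401 features tested, 24.6% were called lower and 30.5% higher, so that the share of sarcomere genes called lower stood far above that of all features. The median log2 difference was -2.56 over the sarcomere genes and 0.03 over all features. All 3 embryo libraries lay below all 3 worm libraries for 27 genes, against 37.6% of all features, and above them for 2 genes, against 42.5%. The median level of the 33 genes was 2.11 RPKM in poly(A) embryos and 28.8 RPKM in maternal-strain worms. A mean of at least 100 RPKM was reached by 3 genes in poly(A) embryos, act-2, unc-60 and act-1, and by 13 in maternal-strain worms.

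**Figure D1:**
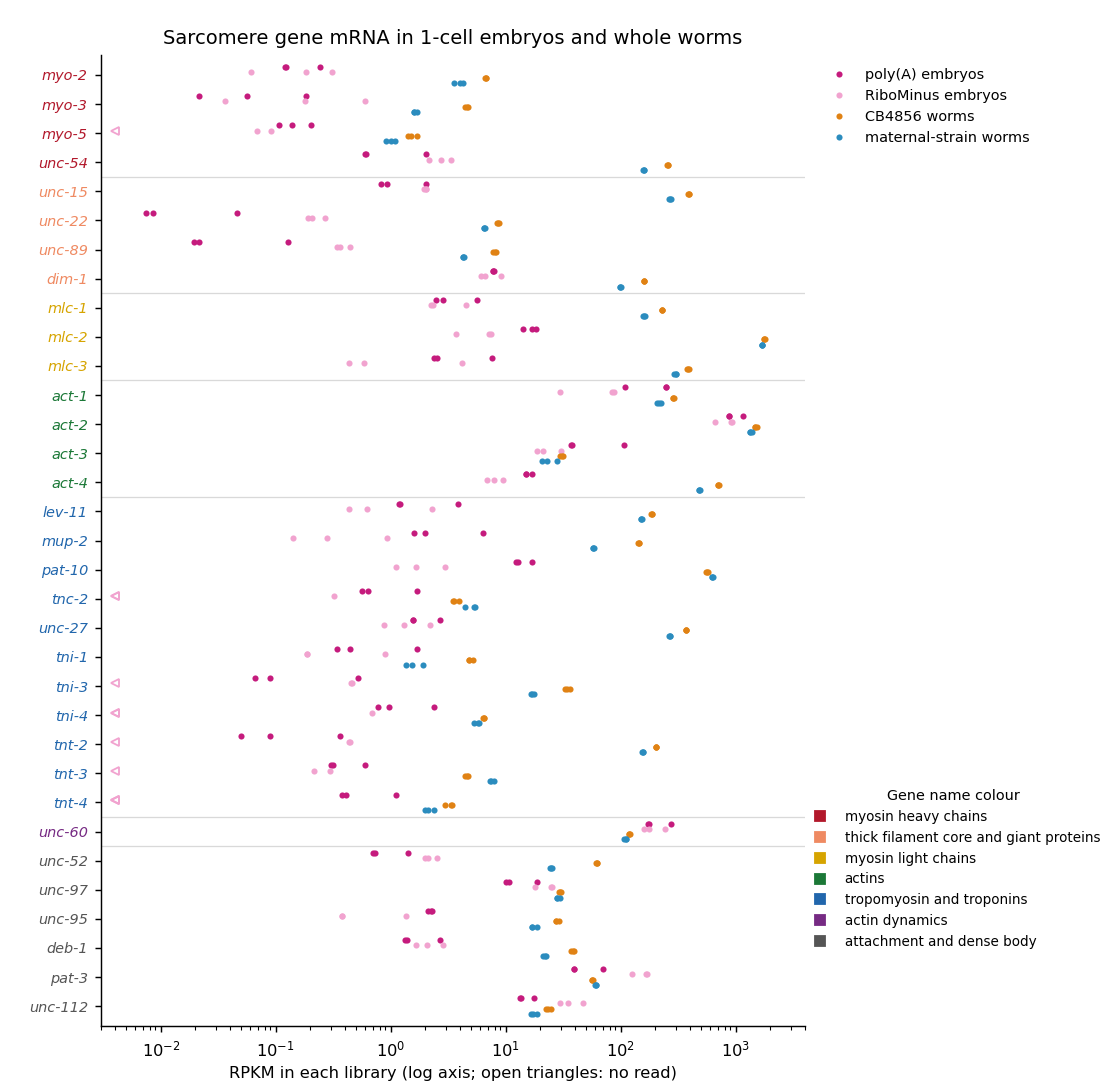
RPKM of each of the 33 genes in each library on a log axis, with poly(A) embryos above RiboMinus embryos, CB4856 worms and maternal-strain worms within a row, and gene names coloured by role. Most genes have embryo points far to the left of the worm points, whereas act-1, act-2, act-3, unc-60, pat-3 and unc-112 have points near each other.

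Myosin heavy chains form the motor and rod of the thick filament. The heavy chain gene unc-54, which encodes the main myosin of body wall muscle, had 0.598, 0.612 and 2.01 RPKM in poly(A) embryos, against 158.8, 158.4 and 157.6 RPKM in maternal-strain worms. The embryo values rested on 546, 532 and 2241 reads, and replicate 3 was over 3 times as high as the others. Their mean of 1.31 ± 0.996 RPKM (SD, n = 2 samples) was 0.829% of the mean in worms. Its log2 difference was -6.18 ± 0.32 (SE, limma adjusted p = 1.32e-05). The pharyngeal myosin gene myo-2 averaged 0.182 ± 0.0858 RPKM in poly(A) embryos and 3.95 ± 0.0357 RPKM in maternal-strain worms (SD, n = 2 samples each), and myo-3, for the myosin at the centre of body wall thick filaments, averaged 0.111 ± 0.102 and 1.63 ± 0.0613 RPKM. Both fell. The gene myo-5 was low in every library, with 0.139, 0.106 and 0.204 RPKM in poly(A) embryos against 0.903, 1.011 and 1.08 RPKM in maternal-strain worms. Its groups did not overlap, but its log2 difference of -0.80 ± 0.07 was under the size that was called (limma adjusted p = 0.000172).

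Paramyosin, the giant proteins and dim-1 were taken as a single role, named thick filament core and giant proteins, and all 4 genes fell. Paramyosin, which fills the core of invertebrate thick filaments, is encoded by unc-15. It had 0.822, 0.923 and 2.01 RPKM in poly(A) embryos, against 265.1, 271.2 and 269.8 RPKM in maternal-strain worms, a log2 difference of -6.83 ± 0.25. No worm library came near any embryo library for this gene. The immunoglobulin-repeat gene dim-1 was the highest of the 4 in embryos, with 7.98, 7.69 and 7.75 RPKM in poly(A) embryos against 100.2, 97.7 and 98.4 RPKM in maternal-strain worms. It was also the one whose embryo replicates lay closest together. The giant kinase genes unc-22, for twitchin, and unc-89, for obscurin, were low in both groups per length, at 0.0268 ± 0.0266 and 0.0744 ± 0.0763 RPKM in poly(A) embryos against 6.56 ± 0.0737 and 4.31 ± 0.0738 RPKM in maternal-strain worms. Limma adjusted p for the 4 genes was at most 1.78e-05, and the call of unc-89 ended with a pseudocount of 5 (-0.88).

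The myosin light chain genes were among the most abundant sarcomere genes in worms and all 3 fell. Regulatory light chains are encoded by mlc-1 and mlc-2, which lie next to each other in the RefSeq annotation of WBcel235 and are near-identical, so that reads may have been split between them. The gene mlc-2 had 16.9, 18.5 and 14.2 RPKM in poly(A) embryos, against 1702, 1693 and 1695 RPKM in maternal-strain worms, and its log2 difference was -6.65 ± 0.20. The sum of both genes was 19.4, 21.3 and 19.9 RPKM in poly(A) embryos, against 1860, 1855 and 1853 RPKM in maternal-strain worms, so that the gap did not depend on how reads were split. The essential light chain gene mlc-3 averaged 5.04 ± 3.69 RPKM in poly(A) embryos and 297.8 ± 7.58 RPKM in maternal-strain worms. Limma adjusted p for the 3 genes was at most 0.000428.

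The 4 actin genes did not move together. Of these, act-4, a body wall muscle actin gene, fell, with 15.1, 14.9 and 16.8 RPKM in poly(A) embryos against 484.0, 481.7 and 489.7 RPKM in maternal-strain worms (log2 difference -4.85 ± 0.18, limma adjusted p = 3.45e-06). The genes act-1, act-2 and act-3 adjoin each other in the same annotation. They are so alike that reads may be split among them, which leaves each single value uncertain. The actin gene act-2, known for roles in the early embryonic cortex as well as in muscle, had 880.4, 881.9 and 1153 RPKM in poly(A) embryos against 1331, 1337 and 1372 RPKM in maternal-strain worms. It was the most abundant sarcomere gene in embryos and was not called (log2 difference -0.42 ± 0.22, limma adjusted p = 0.135). The gene act-1 had 245.5, 245.4 and 108.3 RPKM in poly(A) embryos against 213.3, 222.5 and 208.3 RPKM in maternal-strain worms, and was not called (-0.38 ± 0.57). The gene act-3 had 37.9, 37.1 and 106.4 RPKM in poly(A) embryos against 23.0, 28.0 and 20.5 RPKM in maternal-strain worms. In embryos, replicate 3 was thus the lowest library for act-1 and the highest for act-3. The log2 difference of act-3 was 1.43 ± 0.49 (limma adjusted p = 0.0413), and the call ended without embryo replicate 3 (0.69). It also ended without maternal-strain replicate 3 (1.28) and without maternal-strain replicates 1 and 2 (1.58). The sum of the 3 genes was steadier, at 1164, 1164 and 1367 RPKM in poly(A) embryos against 1568, 1588 and 1601 RPKM in maternal-strain worms.

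Tropomyosin and the troponins make the thin filament respond to calcium, and 9 of their 11 genes fell. The most abundant was pat-10, the troponin C gene of body wall muscle. It had 12.3, 12.9 and 17.0 RPKM in poly(A) embryos, against 616.7, 618.6 and 632.5 RPKM in maternal-strain worms, a log2 difference of -5.32 ± 0.28. The largest fall of all sarcomere genes was that of tnt-2, a troponin T gene, which averaged 0.216 ± 0.207 RPKM in poly(A) embryos and 154.6 ± 0.458 RPKM in maternal-strain worms (log2 difference -7.01 ± 0.19). Its embryo values rested on only 15, 8 and 74 reads. The troponin I gene unc-27, at 2.11 ± 0.777 against 267.4 ± 3.68 RPKM, and the tropomyosin gene lev-11, at 2.52 ± 1.88 against 151.0 ± 0.138 RPKM, fell, with log2 differences of -6.45 and -5.54. The other genes that fell were mup-2, a troponin T gene, at -3.69, tni-3, a troponin I gene, at -3.82, tnt-3, a troponin T gene, at -2.56, and the pharyngeal genes tnc-2, for troponin C, at -1.51 and tni-4, for troponin I, at -1.41. Limma adjusted p for the 9 genes was at most 0.0115. The call of tni-4 ended without either maternal-strain sample (-1.38 and -1.44) and without embryo replicates 1 and 2 (-0.98). With a pseudocount of 5 or quantile normalization the calls of tnc-2 (-0.69 and -0.75) and tni-4 (-0.7 and -0.76) also ended. The genes tni-1 and tnt-4 were not called. The troponin I gene tni-1 had 0.343, 0.441 and 1.68 RPKM in poly(A) embryos against 1.52, 1.36 and 1.90 RPKM in maternal-strain worms, and embryo replicate 3 lay within the worm range. The pharyngeal troponin T gene tnt-4 had 0.408, 0.380 and 1.11 RPKM in poly(A) embryos against 2.12, 1.97 and 2.36 RPKM in maternal-strain worms, without overlap (log2 difference -0.90 ± 0.19, limma adjusted p = 0.00661).

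The gene unc-60 encodes ADF/cofilin proteins, which sever actin filaments, with a muscle form and a general form that the table does not separate. It had 173.6, 174.9 and 272.9 RPKM in poly(A) embryos, against 112.2, 110.4 and 107.8 RPKM in maternal-strain worms. Every embryo library was above every worm library. The log2 difference of 0.99 ± 0.28 was just under the size that was called (limma adjusted p = 0.0206), and it was called without embryo replicates 1 and 2 (1.31).

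The attachment genes divided evenly, with 3 of 6 called lower and none higher. The extracellular matrix gene unc-52, for perlecan, averaged 1.06 ± 0.497 RPKM in poly(A) embryos and 24.6 ± 0.416 RPKM in maternal-strain worms, the vinculin gene deb-1 averaged 2.03 ± 0.952 and 21.9 ± 0.535 RPKM, and unc-95, for a LIM domain protein of dense bodies and M-lines, averaged 2.23 ± 0.0812 and 17.4 ± 0.536 RPKM. All 3 fell, with log2 differences of -3.66, -2.95 and -2.51 (limma adjusted p at most 0.000299). The beta integrin gene pat-3, which encodes the membrane receptor to which both dense bodies and M-lines attach, had 39.5, 39.2 and 70.5 RPKM in poly(A) embryos against 61.5, 59.8 and 61.0 RPKM in maternal-strain worms. The kindlin gene unc-112, whose product binds the integrin tail, had 13.6, 13.2 and 17.6 RPKM in poly(A) embryos against 16.7, 17.3 and 18.5 RPKM in maternal-strain worms. Embryo replicate 3 was above the worms for pat-3 and within their range for unc-112, and neither was called (log2 differences -0.20 ± 0.30 and -0.20 ± 0.24). The PINCH gene unc-97 had 10.03, 10.63 and 18.84 RPKM in poly(A) embryos against 28.0, 27.6 and 29.9 RPKM in maternal-strain worms. All embryo values were below all worm values, at a log2 difference of -0.99 ± 0.31 (limma adjusted p = 0.0284), and unc-97 was called without embryo replicate 3 (-1.40).

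**Figure D2:**
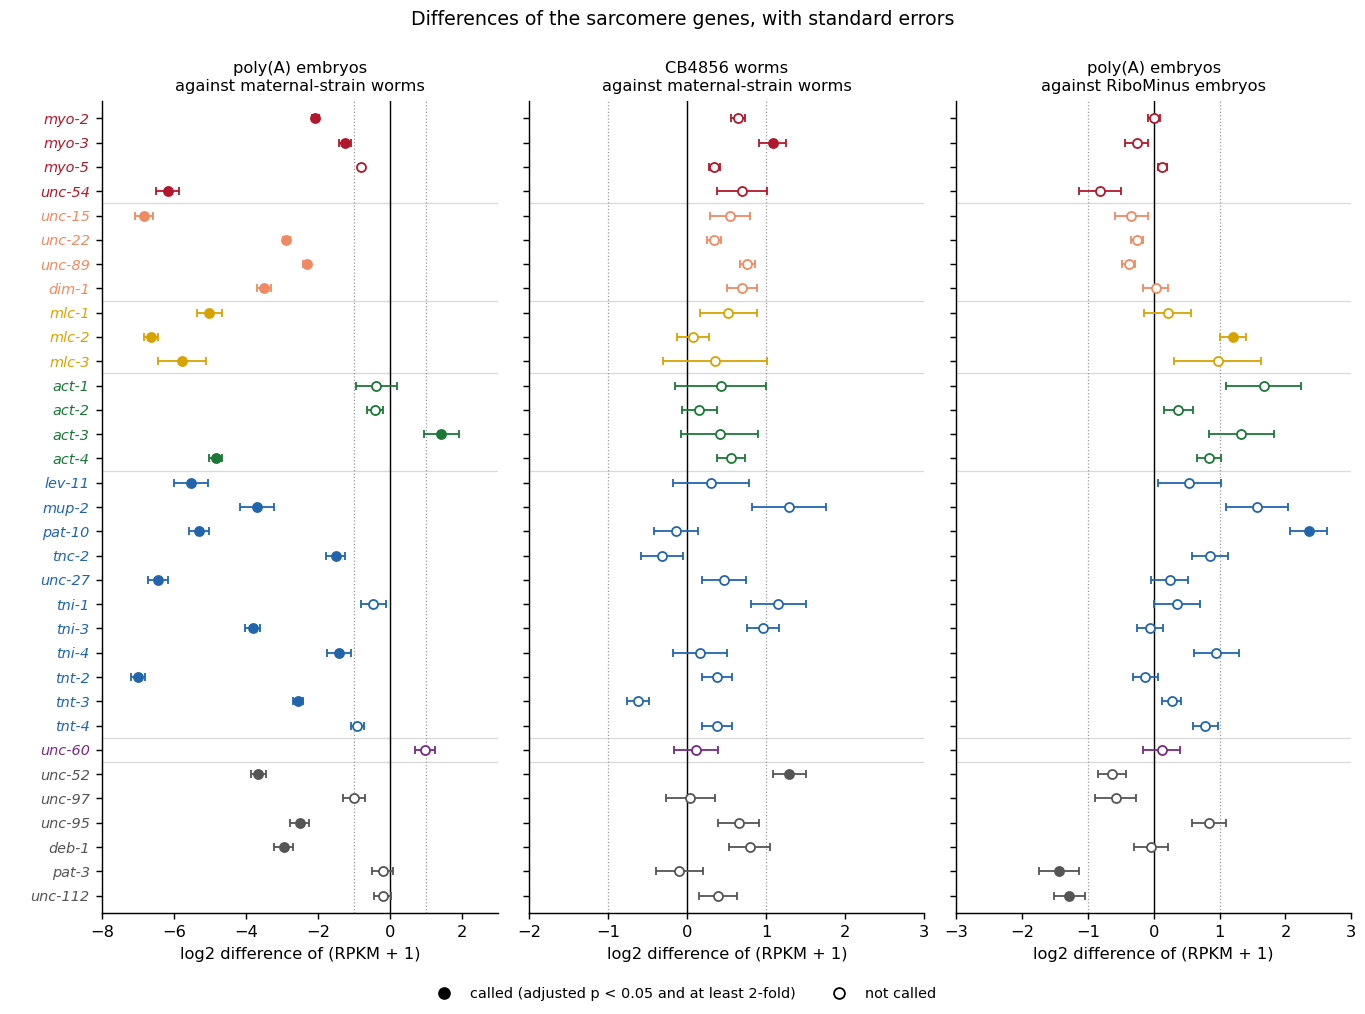
Log2 difference of (RPKM + 1) with its standard error for each gene in 3 comparisons of n = 2 samples a group, with filled points for genes called by limma and dotted lines at a difference of 1 either way. In poly(A) embryos 23 genes are called lower and 1 higher, in CB4856 worms 2 higher, and between the embryo library types 2 higher and 2 lower.

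The residual level in embryos differed between roles. Relative to the mean sum in maternal-strain worms, the summed RPKM in the poly(A) embryo libraries was 0.522% to 1.6% for myosin heavy chains, 1.02% to 1.28% for light chains, 1.48% to 2.95% for tropomyosin and troponins and 2.28% to 2.62% for the thick filament core and giant proteins. The level of this last role was mostly that of dim-1, which held 7.69 to 7.98 of 8.64 to 9.93 RPKM. By mean level dim-1 stood at 7.89% of the worms, against 0.536% for unc-15, 0.409% for unc-22 and 1.73% for unc-89. The summed RPKM was 39.2% to 66.2% of that in maternal-strain worms for the attachment genes, 56.8% to 66.7% for the actins and 158% to 249% for unc-60. In RiboMinus embryos it was 114% to 137% for the attachment genes, 35.4% to 49.7% for the actins and 146% to 221% for unc-60. The other roles there stood at 0.247% to 3.09%. In poly(A) embryos the same quantity was 0.0487% to 0.0775% for the intestine markers and 0.0683% to 0.083% for the cuticle and hypodermis markers, below the filament genes in each library. It was 6.49% to 16.3% for the sperm markers, 39.6% to 41% for the other muscle genes and 230% to 259% for the neuron markers. All of these were above the filament roles other than the actins. The sperm markers summed to only 26.1 RPKM in maternal-strain worms, and 8 to 11 of the 24 genes had no value in poly(A) embryos. The neuron sum rested mostly on snb-1 and unc-119, and 8 of 10 neuron markers were lower in embryos. The part of other tissues in the residual level was not tested. As a result the make-up of the summed level changed: actins made 74.9% to 80.1% of it in poly(A) embryos and 32.5% to 32.8% in maternal-strain worms, and light chains made 1.49% to 1.6% and 33.7% to 34.2%.

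**Figure D3:**
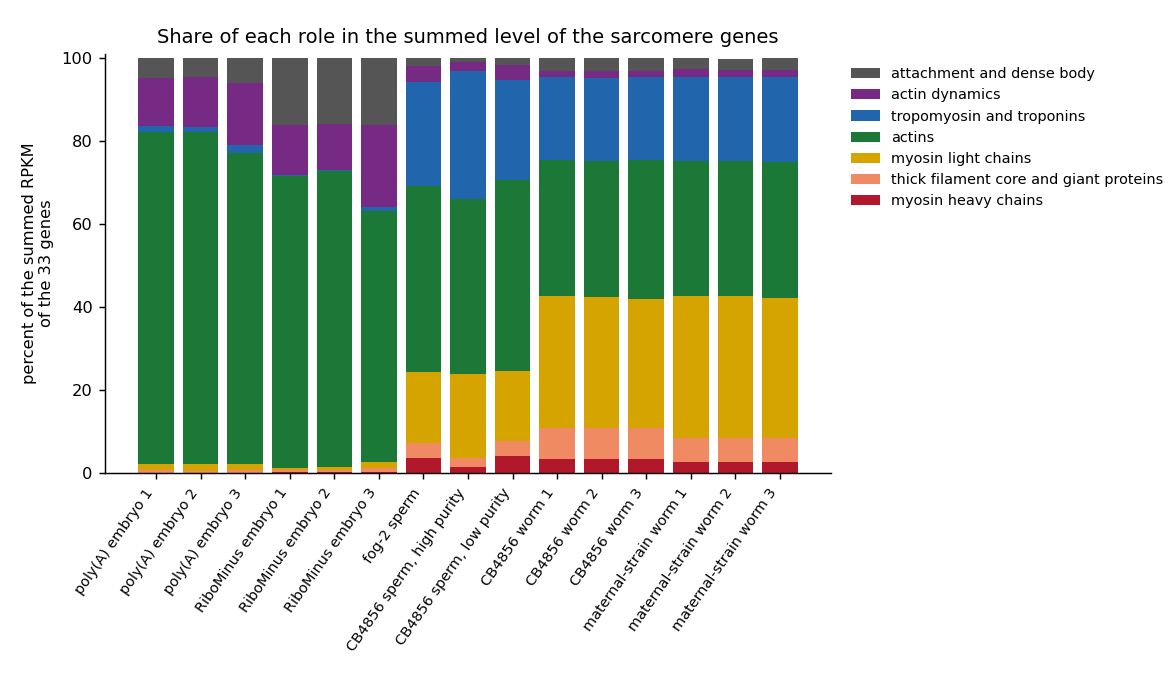
Percent of the summed RPKM of the 33 genes that each role takes, 1 stacked bar per library. Actins and unc-60 fill most of each embryo bar, whereas light chains fill about as much of each worm bar as the actins do, and the sperm bars lie between the embryo and the worm bars in their share of actin.

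Replicate 3 stood apart from replicates 1 and 2 in poly(A) embryos, where the summed level of the 33 genes was 1849 RPKM in replicate 3 and 1471 and 1475 RPKM in the others. It was above both other replicates for 30 of 33 genes, against 55.9% of all features, with a median log2 difference of 0.50 from the mean of replicates 1 and 2. In RiboMinus embryos replicate 3 was above both for 21 of 33 genes, against 47.1% of all features, but its summed level was lower, 1215 RPKM against 1465 and 1437 RPKM. In poly(A) embryos replicate 3 was also above both others for 30 of 36 other muscle genes, 8 of 10 nonmuscle counterparts and 8 of 10 neuron markers. For intestine markers it was above both for 7 of 12, and for oocyte and early embryo markers for 6 of 11, each near the 55.9% of all features. It was above both for 4 of 11 cuticle and hypodermis markers and 5 of 24 sperm markers. The summed other muscle genes were not higher in replicate 3, at 39.6% of the level in maternal-strain worms against 40.5% and 41% in replicates 1 and 2. The summed neuron markers were 476.6, 478.0 and 424.1 RPKM in the 3 libraries. Whether tissue other than the embryo is part of the sarcomere level in replicate 3 was not tested.

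Other muscle genes also fell more often than they rose. Of 36 other muscle genes 30 were tested, and in poly(A) embryos 13 fell and 1 rose, with a median log2 difference of -0.84. The largest fall was that of unc-87, for a calponin-related thin filament protein, at 1.36 ± 0.585 RPKM in poly(A) embryos and 194.5 ± 3.73 RPKM in maternal-strain worms (log2 difference -6.40). The one that rose was pat-6, for the parvin that links integrin to the cytoskeleton, at 67.99 ± 29.2 and 12.7 ± 0.591 RPKM (log2 difference 2.27, limma adjusted p = 0.00149). Of 9 nonmuscle counterparts tested, 4 rose and 2 fell. The nonmuscle light chain genes mlc-4 and mlc-5 rose, at 629.4 ± 269 and 480.4 ± 74.2 RPKM in poly(A) embryos against 96.03 ± 3.92 and 32.8 ± 0.221 RPKM in maternal-strain worms, as did the profilin gene pfn-1 and the capping protein gene cap-1. The nonmuscle myosin gene nmy-1 and the intestinal actin gene act-5 fell.

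Worms of the father's strain were compared with worms of the mother's strain to see where the parents themselves differed. Of the 33 sarcomere genes 2 were called higher in CB4856 worms, against 13.5% of all features, and the other 31 were not called. None was called lower, against 1.67% of all features. Among the genes not called, 7 had a limma adjusted p under 0.05 with a difference under 2-fold. Only tnt-3 of these lay below 0 (log2 difference -0.62 ± 0.14, limma adjusted p = 0.0192). How many of all features met the same condition was not counted. The matrix gene unc-52 had 61.6, 62.7 and 61.0 RPKM in CB4856 worms against 25.1, 24.7 and 24.3 RPKM in maternal-strain worms, a log2 difference of 1.29 ± 0.21 (limma adjusted p = 0.00461). The myosin gene myo-3 had 4.42, 4.72 and 4.57 RPKM in CB4856 worms against 1.60, 1.58 and 1.68 RPKM in maternal-strain worms, a log2 difference of 1.08 ± 0.17 (limma adjusted p = 0.00493). In both genes the strains did not overlap. The call of myo-3 ended with a pseudocount of 0.1 (log2 difference 1.43, limma adjusted p = 0.215), a pseudocount of 5 (0.53), quantile normalization (0.57) and median centring (0.84). The call of unc-52 ended without CB4856 replicate 3 (limma adjusted p = 0.0531) and without CB4856 replicates 1 and 2 (limma adjusted p = 0.0555), at log2 differences of 1.30 and 1.28.

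Small differences were widespread in this comparison. All 3 CB4856 libraries were above all 3 maternal-strain libraries for 28 of 33 genes, against 42.6% of all features, and the median log2 difference was 0.41, against 0.04 over all features. Of the 30 other muscle genes tested none was called, and their median was 0.38. The troponin T gene mup-2, at 142.8 ± 2.37 against 57.6 ± 0.694 RPKM, and the troponin I gene tni-1, at 4.89 ± 0.171 against 1.67 ± 0.324 RPKM, had differences of 1.29 ± 0.47 and 1.15 ± 0.35 and were not called. Both were called when only the worm groups were fitted (limma adjusted p = 1.09e-06 and 0.00023). The troponin genes tnt-3, at 4.57 ± 0.1652 against 7.55 ± 0.0739 RPKM, tnc-2, at 3.72 ± 0.286 against 4.91 ± 0.637 RPKM, and pat-10, at 566.3 ± 15.1 against 625.1 ± 10.6 RPKM, lay below 0, as did pat-3. The summed sperm markers were 3516 to 3545 RPKM in CB4856 worms and 24.8 to 28.1 RPKM in maternal-strain worms, and the oocyte and early embryo markers 9630 to 9816 and 12260 to 12450 RPKM. The part of these differences in the sarcomere values was not tested, and the strain and the fem-1(hc17ts) allele cannot be told apart.

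Poly(A) selection was set against rRNA depletion in embryos to compare the library types on the same kind of sample. Of the 33 genes 2 were higher and 2 lower in poly(A) embryos, against 11.9% and 8.37% of all features. The 3 poly(A) libraries lay above all RiboMinus libraries for 12 genes, against 31% of all features, and below them for 6, against 17.9%. The troponin C gene pat-10 had 12.3, 12.9 and 17.0 RPKM in poly(A) embryos against 1.67, 1.12 and 2.94 RPKM in RiboMinus embryos (log2 difference 2.35 ± 0.28, limma adjusted p = 0.0043). The light chain gene mlc-2 had 16.9, 18.5 and 14.2 RPKM in poly(A) embryos against 3.69, 7.11 and 7.41 RPKM in RiboMinus embryos (log2 difference 1.20 ± 0.20, limma adjusted p = 0.0104). Both groups were separate for both genes, but in RiboMinus embryos pat-10 rested on 6, 4 and 32 reads and mlc-2 on 12, 23 and 73.

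Lower with poly(A) selection were pat-3 and unc-112. The integrin gene pat-3 had 39.5, 39.2 and 70.5 RPKM in poly(A) embryos against 170.9, 165.7 and 124.9 RPKM in RiboMinus embryos (log2 difference -1.44 ± 0.30, limma adjusted p = 0.02). The kindlin gene unc-112 had 13.6, 13.2 and 17.6 RPKM in poly(A) embryos against 34.6, 29.9 and 46.8 RPKM in RiboMinus embryos (-1.28 ± 0.24, limma adjusted p = 0.014). These groups did not overlap, and the reads in RiboMinus embryos were many, 2145 to 4926 for pat-3 and 339 to 1618 for unc-112. The call of pat-3 ended without RiboMinus replicates 1 and 2 (-1.23), and that of unc-112 after quantile normalization (-0.99). That of mlc-2 ended with a pseudocount of 5 (0.88) and after quantile normalization (0.98). In RiboMinus embryos pat-3 stood above the 59.8 to 61.5 RPKM of maternal-strain worms in every library. Among the genes not called, unc-54 had 0.598, 0.612 and 2.01 RPKM in poly(A) embryos against 2.16, 2.71 and 3.37 RPKM in RiboMinus embryos, and tnt-4 had no read in any RiboMinus library, where 3 reads would have been 0.159 to 0.483 RPKM. None of the 4 calls held when only the embryo groups were fitted, as limma called 0 of all features there. In the fit of 4 groups 10 sarcomere genes above 0 and 6 below it had an unadjusted limma p under 0.05. The same count over all features was not made, so that these counts cannot be read as a trait of the sarcomere genes.

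The sperm libraries had 1 library a condition, so that values are given without a test, and a 2-fold difference is counted on the log2(RPKM + 1) scale. Sarcomere mRNAs were present in all 3 sperm preparations, with summed levels of 3170 RPKM in fog-2 sperm, 4855 RPKM in high-purity CB4856 sperm and 3585 RPKM in low-purity CB4856 sperm. The RPKM of all features summed to 785500, 1072000 and 783200 in the same libraries. The higher sarcomere sum at high purity therefore does not show a larger share of the library. In high-purity against low-purity sperm 9 of 33 genes were at least 2-fold higher, against 9.38% of all 14652 features compared, and 2 were at least 2-fold lower, against 14.2%. The median log2 difference was 0.40 over the sarcomere genes and -0.14 over all features. Sperm markers, the major sperm proteins among them, were at least 2-fold higher for 20 of 24 genes, with a sum of 72500 RPKM at high purity and 24920 RPKM at low purity. Intestine markers were at least 2-fold lower for 7 of 12 genes, with sums of 2029 and 5282 RPKM. Cuticle and hypodermis markers summed to 4904 and 7161 RPKM and neuron markers to 558.2 and 626.7 RPKM, and no gene of either list was 2-fold different.

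Of the 9 genes that were higher at high purity, 5 encode troponins. The pharyngeal troponin genes tnt-4, tnc-2 and tni-4 had 4.36, 4.72 and 11 RPKM at high purity, against 0.463, 0.732 and 3.08 RPKM at low purity. The pharyngeal myosin gene myo-2 had 3.96 against 0.705 RPKM, or 5.62 times the level, and myo-5 had 2.04 against 0.343 RPKM. In fog-2 sperm tnt-4 had 0.482 RPKM, tnc-2 0.181 RPKM, tni-4 2.19 RPKM, myo-2 0.362 RPKM and myo-5 0.318 RPKM, so that the high-purity library was the highest of the 3 sperm libraries for each. In whole CB4856 worms myo-2 averaged 6.72 RPKM and tni-4 6.42 RPKM. The body wall troponin I genes tni-3 and unc-27 had 279.4 and 199.0 RPKM at high purity against 127.2 and 87.8 RPKM at low purity. The other genes past 2-fold were dim-1, at 30.1 against 13.3 RPKM, and unc-95, at 7.65 against 1.99 RPKM.

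The main myosin of body wall muscle went the other way. The gene unc-54 had 67.9 RPKM at high purity, against 142.6 RPKM at low purity, and unc-112 had 5.94 against 14.9 RPKM. The paramyosin gene unc-15, at 65.5 against 118.2 RPKM, and pat-3, at 10.98 against 21.97 RPKM, were also below, by slightly less than 2-fold on the scale used. Myosin heavy chains summed to 76.7 RPKM at high purity and 146.2 RPKM at low purity, a sum set almost wholly by unc-54, since the other 3 heavy chain genes were above 0. Light chains summed to 984.8 and 602.5 RPKM and tropomyosin and troponins to 1501 and 858.4 RPKM. The RPKM of all features was also higher at high purity, at 1072000 against 783200. Of 36 other muscle genes 33 were compared, none was 2-fold higher and 5 were 2-fold lower, with sums of 424.3 RPKM at high purity and 623.5 RPKM at low purity. With a pseudocount of 5, which damps low genes, 2 sarcomere genes were 2-fold higher in place of 9, and 1 was 2-fold lower in place of 2.

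**Figure D4:**
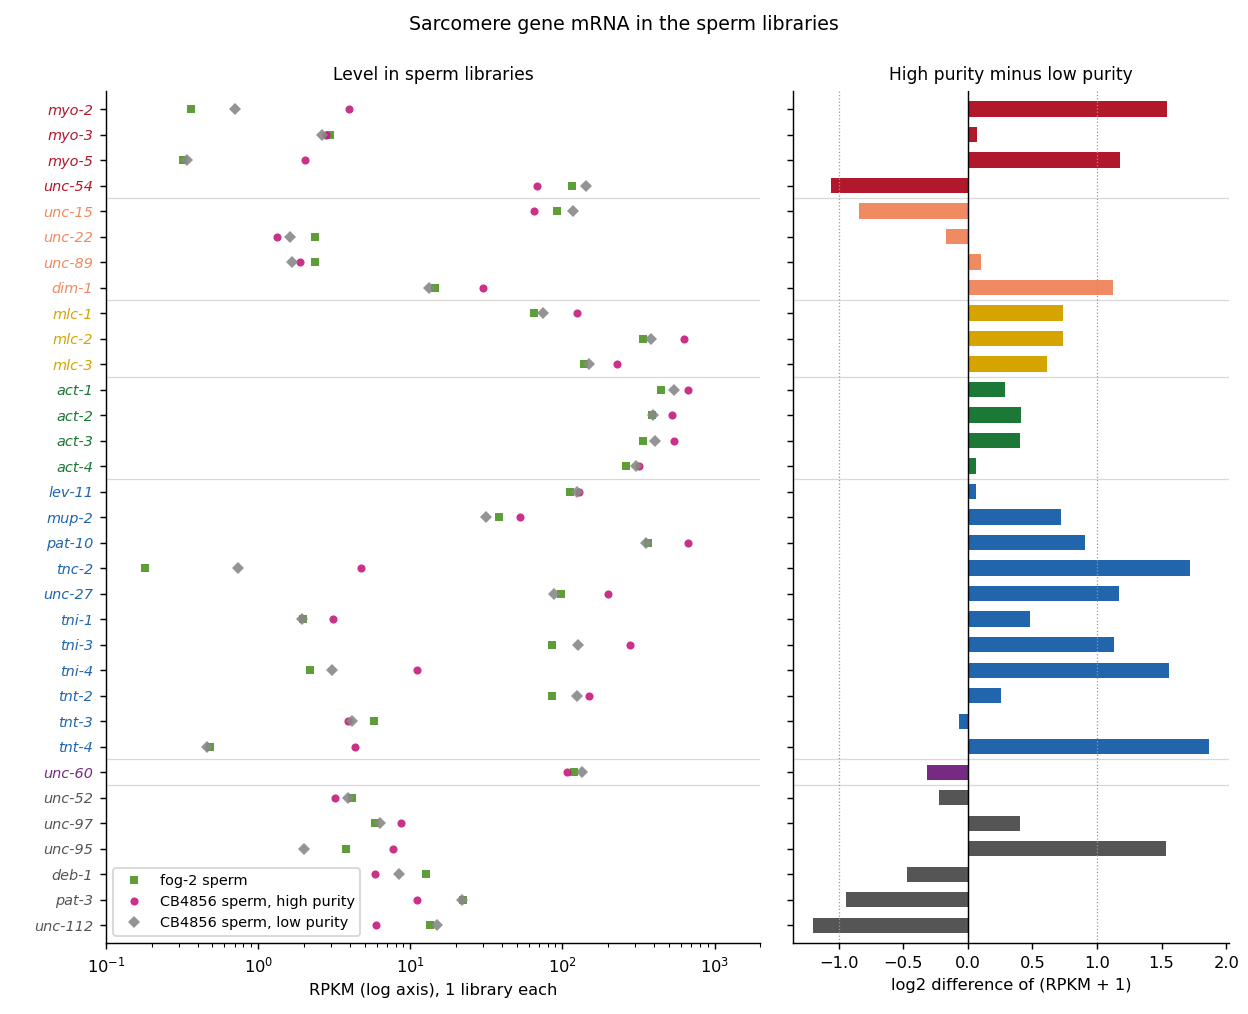
Left, RPKM of each gene in fog-2 sperm, high-purity CB4856 sperm and low-purity CB4856 sperm on a log axis, 1 library each. Right, the log2 difference of (RPKM + 1) of high purity minus low purity, with dotted lines at 2-fold, which is above 0 for 10 of the 11 tropomyosin and troponin genes and lowest for unc-112 and unc-54.

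In fog-2 sperm against high-purity CB4856 sperm 2 of 33 genes were at least 2-fold higher, against 19.5% of all features, and 8 were at least 2-fold lower, against 9.94%. The lower ones were dim-1, myo-2, myo-5, tnc-2, tni-3, tni-4, tnt-4 and unc-27. This comparison shares the high-purity library with the one before, so that the pair is not independent. The higher ones were deb-1, at 12.7 against 5.86 RPKM, and unc-112, at 13.6 against 5.94 RPKM. Sperm markers summed to 28570 RPKM in fog-2 sperm and 72500 RPKM in high-purity sperm, and intestine markers to 4305 and 2029 RPKM.

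High-purity CB4856 sperm was also set against whole CB4856 worms, with the limit that the tables of sperm and worms were made differently. At least 2-fold higher were 3 of 33 genes, against 43.7% of all features, and at least 2-fold lower were 15, against 15.6%. All 6 attachment genes were 2-fold lower, and so were all 4 thick filament core and giant protein genes. The troponin I gene tni-3 had 279.4 RPKM in high-purity sperm against 32.5, 36.03 and 34.2 RPKM in CB4856 worms, and it was also above the worms in low-purity sperm, at 127.2 RPKM, and in fog-2 sperm, at 85.9 RPKM. The other genes that were higher, act-1 and act-3, are near-identical to act-2, which was lower, at 525.5 RPKM in sperm and 1503 ± 37.2 RPKM in CB4856 worms. Their sum of 1727 RPKM in high-purity sperm lay just below the 1792 to 1845 RPKM of CB4856 worms. Whether the assignment of reads among the copies differed was not tested.

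Small RNAs gave another readout of the same genes. In the nematode germline, most antisense small RNAs are made by RNA-dependent RNA polymerases on mRNA templates, while sense reads can be fragments of the mRNA. Each small RNA library stood alone, values are in ppm of the exon reads of the same strand and library, and intervals are exact binomial at 95% and cover counting error only. Antisense reads over the sarcomere genes took 204.5 ppm in fog-2 sperm (interval 194.2 to 215.2), 277.3 in hybrid embryos (258.7 to 296.8), 245.0 in TX189 embryos (236.4 to 253.9) and 228.8 in oocytes (217.4 to 240.6). The genes made 0.156% of the genes in the table, a larger share than they held of the antisense reads in any of the 4 libraries. Against the median of all genes they were not low as a set. Of the 33 genes, 16 lay above that median in fog-2 sperm, 18 in hybrid embryos, 17 in TX189 embryos and 15 in oocytes.

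In embryos most antisense reads lay over a few genes, most of them also high in embryo mRNA. That mRNA was measured in hybrid embryos only. In TX189 embryos unc-60, pat-3, act-2 and unc-112 held 86.9% of the 3054 antisense reads over the set, and unc-60 alone held 1659. The same gene led in hybrid embryos with 212 of 827 reads and in fog-2 sperm with 464 of 1469 reads, while in oocytes unc-112 and pat-3 led with 350.5 and 348 of 1519 reads. Fractions of a read arise where reads were shared between places. The 5 genes with the largest falls had few antisense reads in any of the 4 libraries: tnt-2 had at most 4, unc-15 4 to 18, mlc-2 at most 1, unc-27 at most 2 and unc-54 10 to 17. The median of all genes was low too, from 0.557 ppm in fog-2 sperm to 1.006 ppm in hybrid embryos. Both unc-15, at 1.284 to 2.506 ppm, and unc-54, at 0.963 to 4.358 ppm, lay above that median in each library. The genes mlc-2 and unc-27 lay below it, and tnt-2 at or below it. The tropomyosin gene lev-11, which also fell far, had many more, with 94 in hybrid embryos and 280.5 in oocytes. In hybrid embryos unc-60, pat-3, lev-11 and act-2 led and held 66.2% of the antisense reads, although lev-11 averaged only 2.52 RPKM in poly(A) embryos.

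Sense reads differed more between the libraries. They took 5166 ppm in fog-2 sperm, 13160 in hybrid embryos, 1204 in TX189 embryos and 20070 in oocytes. The obscurin gene unc-89 alone held 2926 of 4550 sense reads in hybrid embryos and 4033 of 4260 in oocytes, but 22 of 900 in TX189 embryos. Without unc-89 the sense reads numbered 1624 in hybrid embryos and 227 in oocytes. In fog-2 sperm the leading genes were those of muscle filaments, unc-54 with 368 of 1782, unc-22 with 235, pat-10 with 229 and unc-15 with 164 sense reads. Sense reads outnumbered antisense reads for 20 of 33 genes in fog-2 sperm, against 21% of all genes, for 24 in hybrid embryos, against 25.2%, for 9 in TX189 embryos, against 16.7%, and for 11 in oocytes, against 15.6%.

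**Figure D5:**
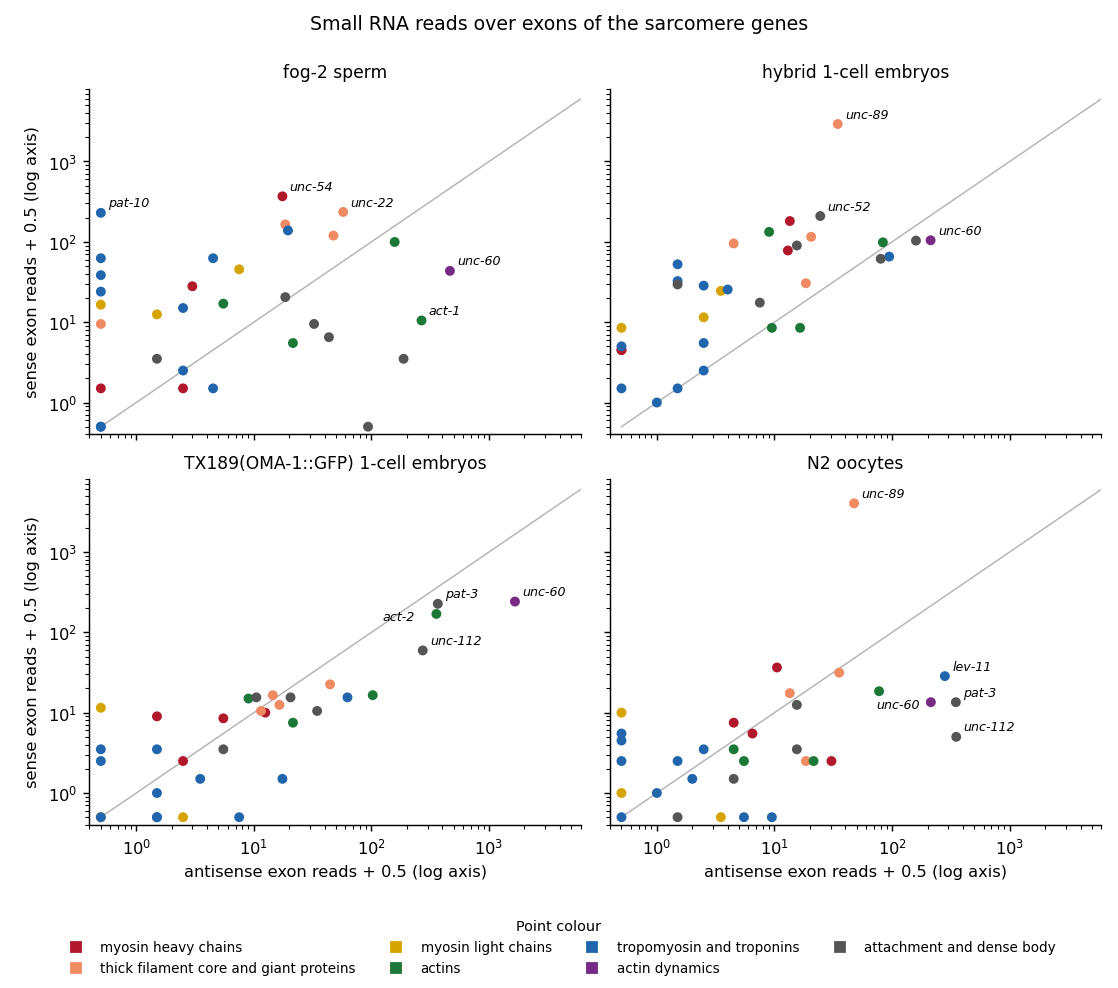
Sense (vertical) and antisense (horizontal) small RNA reads over the exons of each gene, 0.5 added, on log axes, in 4 single libraries, with points coloured by role and genes of at least 200 reads on either strand named. Genes above the grey line have more sense reads, unc-89 stands alone at the top in hybrid embryos and oocytes, and unc-60 lies farthest to the right in fog-2 sperm and in both embryo libraries.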

How the data were processed

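Reads were aligned with BWA, per the submitters' processing notes; its version, the genome build and the annotation are not given in the sources used here. The deposited mRNA table holds RPKM made by the authors. A missing value was taken as 0. Reads per gene were worked back from the steps between RPKM values (tolerance 0.01) for 16871 of 16872 features; on simulated data 99.5% of 16504 came out right. The mean dispersion between replicates 1 and 2 was 1.92 to 2.13, which is what sampling of read pairs with both mates counted gives, and 34.96 to 1388.25 between replicates 1 and 3, so replicates 1 and 2 were averaged.

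A single limma-trend model (version 3.58.1, under R 4.3.3) covered the 4 replicated groups on the log2(RPKM + 1) scale, for the 11401 features that reached 1 RPKM in 3 or more of 12 libraries, with two-sided Benjamini-Hochberg adjusted p. All 33 genes passed. On simulated data with 100 changed features a size, the comparisons in the order of the report recovered 34, 17 and 34 at 2-fold and 88, 85 and 77 at 4-fold, with 97, 0 and 178 false calls.

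The deposited small RNA table gives a signal over exons; the authors do not explain its scale, and reads were taken as multiples of its commonest step, which left 90.2% to 92.5% whole (tolerance 0.0001). Of its columns 12 were not used, as they could not be tied to a sample, and 5 gene IDs listed more than once were left out.

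The genes, lists and tests were chosen with earlier results of these data known. Values in every library are given for the gene of each role that is highest in maternal-strain worms, the one highest in poly(A) embryos, and those whose call differs from that of most genes. Alternatives were other pseudocounts, filters, scalings, a replicate block, each group pair alone and leaving out samples.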

Additional observations from a re-analysis of the deposited data

How the results depend on the processing

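Among sarcomere genes in poly(A) embryos against maternal-strain worms, 18 (pseudocount 5) to 25 (pseudocount 0.1) were lower across the settings, in place of 23. The 1 higher call became 0 with no filter on low values, after quantile normalization or with only the 2 groups fitted, 2 after median centring, and 0 to 2 when a sample was left out. In CB4856 worms the 2 higher calls became 1 with a pseudocount of 0.1, an RPKM of at least 5 in 3 libraries or median centring, 4 with 3 libraries taken as 3 samples or only the 2 groups fitted, and 1 to 2 when a sample was left out. Quantile normalization gave 1 lower in place of 0, tnt-3 (-1.47, limma adjusted p = 0.000249). Between poly(A) and RiboMinus embryos the 2 higher became 4, 1, 5, 5, 4 and 0 with a pseudocount of 0.1, one of 5, median centring, 3 libraries as 3 samples, the replicate block and only the 2 groups, and 3 to 7 when a sample was left out. The 2 lower became 4 with a pseudocount of 0.1, 1 after quantile normalization, 0 with only the 2 groups, and 1 to 3 when a sample was left out.

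In sperm, high against low purity gave 2 higher and 1 lower with a pseudocount of 5, 5 higher with an RPKM of at least 5 in either library, and 13 higher and 0 lower after median centring, which shifts this comparison by -0.29. Against high-purity sperm, fog-2 sperm gave 0 higher and 2 lower with a pseudocount of 5, 4 lower with an RPKM of at least 5, and 0 higher and 13 lower after median centring (shift 0.25). High-purity sperm against CB4856 worms gave 23 lower after median centring (shift 0.79).

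Values that changed sign were small or uncalled. In embryos against maternal-strain worms these were myo-5 (0.03), tni-1 (0.40) and tnt-4 (0.01) after quantile normalization, act-1 (-0.42 to 0.20) without a replicate 3, and tni-1 (0.01) and pat-3 (0.21) without embryo replicates 1 and 2. In CB4856 worms they were myo-5 (-0.23), tni-4 (-0.30) and tnt-4 (-0.18) after quantile normalization, mlc-2 (-0.17), act-2 (-0.08), tni-4 (-0.08), unc-60 (-0.13) and unc-97 (-0.19) after median centring, and unc-97 (-0.01) without maternal-strain replicates 1 and 2. Between the embryo library types, myo-2 (0.08), tni-3 (0.02) and deb-1 (0.05) changed after median centring, and act-2 (-0.45) and unc-60 (-0.50) after quantile normalization. There, leaving out a replicate 3 gave -0.36 to 0.00 for myo-3, -0.22 to 0.58 for mlc-1, -0.04 to 1.09 for lev-11, -0.02 to 0.55 for unc-27, -0.11 to 0.70 for tni-1, -0.31 to 0.06 for tni-3 and -0.21 to 0.38 for unc-60. Leaving out poly(A) replicates 1 and 2 gave 0.07 for myo-2, 0.00 for unc-15, 0.18 for tni-3, 0.04 for tnt-2 and 0.29 for deb-1. Leaving out RiboMinus replicates 1 and 2 gave -0.19 for dim-1, -0.17 for mlc-1, -0.02 for lev-11, -0.07 for unc-27, -0.15 for unc-60 and 0.16 for deb-1. The cause of these changes was not tested.

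Over all features, quantile normalization moved the calls in CB4856 worms to 960 higher and 598 lower from 1537 and 190, and the median to -0.19 from 0.04; median centring moved it to -0.20, and the median of the sarcomere genes to 0.18. Between the embryo types, quantile normalization gave 1005 higher and 1097 lower in place of 1362 and 954. Same-numbered samples share only a number: the correlation of their deviations was 0.09, 0.71 and 0.25 in the 3 comparisons, and with the replicate block the calls were 1 higher and 23 lower, 3 and 0, and 4 and 2. RiboMinus depth limits genes under about 1 RPKM, which rested on at most 10 reads in replicates 1 and 2 for the tropomyosin and troponin genes.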
